A study of Mus musculus with 3 samples.

Results

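Levels of 9 target genes of p53 were measured in mouse intrahepatic biliary epithelial cells (BECs) on 3 one-colour 3D-Gene microarrays. The genes were chosen by name, with earlier results of these data known. Every probe whose platform symbol was among 10 written symbols (*Trp53*, *Mdm2*, *Ccng1*, *Phlda3*, *Gadd45a*, *Plk2*, *Eda2r*, *Aen*, *Bbc3* and *Zmat3*) was taken. This gave 9 probes, 1 for each of 9 genes, among the 23473 gene probes and 19321 gene symbols of the array. No probe was matched to *Trp53*, the gene of p53 itself, in the annotation used here, and its level is not analysed here. One array held RNA of serum-depleted BECs, one held RNA of BECs treated with 200 μM glycochenodeoxycholic acid (GCDC), a conjugated bile acid, and one held RNA of control BECs. Both treatments were used to bring the cells into senescence. The sample labels give 4 to 7 days for them, and 7 days is the duration stated for the array comparison. The BECs came from female BALB/c mice, aged 8 weeks, and were grown with 10% Nu-serum, EGF, insulin and forskolin. Each array held a pool of RNA from 2 independent experiments, so every condition was measured on 1 array here, the spread between cultures cannot be estimated, and no p-value was computed. The study also ran arrays on other sets of samples, which are not analysed here.

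The protein p53 is a transcription factor that is held at a low amount by the ubiquitin ligase MDM2 and accumulates after DNA damage, oncogene activation or disturbed ribosome assembly. It then switches on genes that stop the cell cycle, repair DNA or start apoptosis, and it also switches on *Mdm2*, which closes a negative feedback loop. Arrest through p53 and its target *Cdkn1a* is one of the main routes into senescence, and CDKN1A protein (p21) is used as a marker of senescent bile ducts. The RNA of *Trp53* says little on the activity of p53, which is mostly set at the protein, so target genes are the usual transcript readout.

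A level here is the intensity of a spot after subtraction of the mean of the blank spots, scaled so that the median valid gene probe of each array lay at 25. A probe was valid where its signal exceeded the blank mean by over 2 SD of the blanks, which held for 20215 gene probes on the serum depletion array, 20641 on the GCDC array and 20947 on the control array. All 9 probes were valid on all 3 arrays, so none of them passed through 1 condition alone. Changes are given as treated level over control level, and a gene is said to have risen or fallen past 2-fold only, a log2 ratio beyond 1 or -1. In bulk RNA fewer cells that make a transcript and less of it per cell cannot be told apart. The median log2 ratio over all compared probes was 0.16 in serum depletion (19809 probes) and 0.23 in GCDC (20087 probes). The array holds 2 positive controls of 24 spots each, whose coefficient of variation between spots was at most 14.3% on the serum depletion array, 10.4% on the GCDC array and 10.3% on the control array. Spot scatter of this size alone gives an error of about 0.25 (serum depletion) and 0.21 (GCDC) in a log2 ratio to control, and the scatter between cultures comes on top and is unknown. Of 10 written cholangiocyte markers 7 were on the array, and all 7 were valid on every array. *Krt19* had levels of 11882 after serum depletion, 27738 after GCDC and 13442 in control BECs. *Sox9* was the lowest of the 7, with levels of 20.6, 23.1 and 16.7 on the same arrays, below the median of 25. Validity alone does not tell cell types apart. All 5 hepatocyte markers and 4 of 5 leukocyte markers were also valid on every array. *Alb*, the defining gene of hepatocytes, stayed between 2.34 and 3.66, and *Ptprc*, that of leukocytes, between 1.83 and 2.62, both near the background. Other markers of these lists were not: *Ttr* had levels of 288 after serum depletion and 50.4 after GCDC, against 36.9 in control BECs, *Hnf4a* 133, 108 and 135 on the same arrays, and *Cd14* lay between 1469 and 2792. Summed levels of the 5 hepatocyte markers were 439 after serum depletion, 175 after GCDC and 192 in control BECs, and those of the 5 leukocyte markers were 2369 after serum depletion, 2910 after GCDC and 1557 in control BECs. The 5 fibroblast markers summed to 50.2 after serum depletion, 52.0 after GCDC and 39.3 in control BECs, and the 5 endothelial markers to 52.5 after serum depletion, 56.3 after GCDC and 24.3 in control BECs. Of the endothelial markers *Kdr* rose in both treatments (log2 ratios of 1.26 and 1.31), *Tek* was not valid on any array and *Pecam1* was valid on the control array only. The part of other cells in the results was not tested.

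Before the values, the promoters of these genes are shown where they hold a p53 decamer, the 10-base repeat of which a complete p53 element has a pair, since a binding site is what the genes are thought to share. RefSeq promoter windows of 250 bases before and 50 bases after a start were found for 8 of the 9 measured genes (GRCm38.p6, 11 windows). An exact decamer on either strand was found in windows of 4 of these 8 genes, against 9.55% of 27025 genes in the same table. The motif is its own reverse complement, so both strands give the same matches. No window of these genes held 2 decamers up to 13 bases apart, the full site, which was found in 24 of 32851 windows of all genes. The matches are printed with the decamer in capitals. They describe the sequence and do not show that p53 was bound in these cells, and sites outside the windows were not searched.
Mdm2, chr10:117710910-117710969, minus strand: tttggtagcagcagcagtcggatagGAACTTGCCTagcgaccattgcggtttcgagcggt
Ccng1, chr11:40755437-40755496, minus strand: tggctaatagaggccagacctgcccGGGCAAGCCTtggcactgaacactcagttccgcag
Gadd45a, chr6:67037413-67037472, minus strand: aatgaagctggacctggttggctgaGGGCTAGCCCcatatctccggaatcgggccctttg
Aen, chr7:78895927-78895956, plus strand: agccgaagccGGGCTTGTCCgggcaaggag
The decamer ended 176 bases before the start in *Mdm2*, 175 in *Ccng1*, 30 in *Gadd45a* and 111 before the later of the 2 starts of *Aen*. *Phlda3*, *Plk2*, *Eda2r* and *Bbc3* had no exact match in these windows.

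Taken by direction, the 9 genes split in both treatments. In serum depletion *Phlda3* and *Gadd45a* rose, *Plk2*, *Eda2r* and *Aen* fell, and *Mdm2*, *Ccng1*, *Bbc3* and *Zmat3* lay within 2-fold of control. In GCDC *Phlda3* and *Gadd45a* rose, *Plk2* and *Eda2r* fell, and the other 5 lay within 2-fold. The 2 rises were 22.2% of the genes, beside 13.5% of all probes after serum depletion and 13% after GCDC. The 3 falls in serum depletion were 33.3%, beside 11.1% of all probes, and the 2 falls in GCDC were 22.2%, beside 8.51%. With 9 genes, 1 gene more or less moves these shares by 11.1 percentage points. The median log2 ratio of the 9 genes was -0.85 in serum depletion, against 0.16 over all probes, and -0.35 after GCDC, against 0.23. In each treatment 7 of the 9 genes lay below the median of all probes. Both sets of ratios were divided by the same control array and are not independent of each other.

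**Figure D1:**
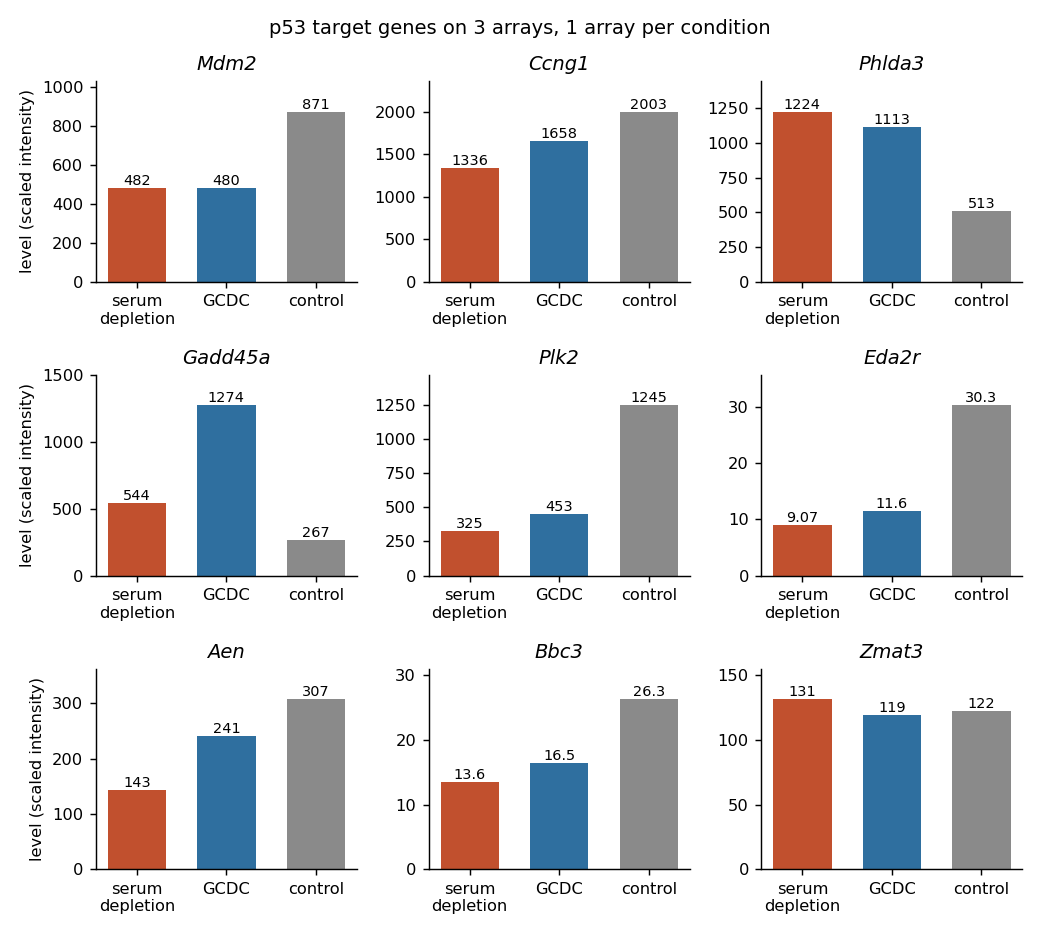
Level of each p53 target gene (scaled intensity, linear axis from 0, each panel with its own axis) in serum-depleted, GCDC-treated and control BECs, 1 array per bar and no error bars. *Phlda3* and *Gadd45a* are above control on both treated arrays, while *Plk2*, *Eda2r*, *Aen*, *Bbc3*, *Mdm2* and *Ccng1* are below control on both.

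The negative regulators did not pass 2-fold. *Mdm2*, the ubiquitin ligase that marks p53 for degradation, had a level of 482 after serum depletion and 479.6 after GCDC, against 871 in control BECs. The treated arrays were almost equal at this gene and both stood below control, 1.81-fold lower after serum depletion and 1.82-fold lower in GCDC (log2 ratios of -0.85 and -0.86). Its ratio lay at the 13.3 percentile of all probes after serum depletion and the 10.3 percentile in GCDC, a place that no rescaling of a whole array can change. The ratio passed 2-fold under 4 of 9 alternative settings after serum depletion and 5 of 9 after GCDC, with log2 ratios down to -1.46 and -1.54. *Ccng1*, which encodes cyclin G1, a partner of a phosphatase that acts on MDM2, had levels of 1336 after serum depletion and 1658 after GCDC, against 2003 in control BECs. Its log2 ratios were -0.58 and -0.27, the GCDC ratio close to the scatter of spots on 1 array. After quantile normalization they were -1.37 and -1.13, past 2-fold.

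*Phlda3* and *Gadd45a* were the genes that rose. *Phlda3*, a pleckstrin-homology protein that competes with the kinase AKT for membrane lipids and so holds back survival signals, reached 1224 after serum depletion and 1113 after GCDC, against 513 in control BECs. These are rises of 2.39-fold and 2.17-fold, and the 2 treated arrays were close to each other (log2 ratio of serum depletion over GCDC 0.14). In place among all probes *Phlda3* stood at the 91.5 percentile after serum depletion and the 89.9 percentile in GCDC. Both rises stayed positive under all 9 alternatives but were under 2-fold in 4 of them after serum depletion and in 5 after GCDC, with lowest log2 ratios of 0.61 and 0.43 after cyclic loess.

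*Gadd45a*, a small nuclear protein that takes part in arrest at G2/M and in stress kinase signalling, and that is also induced without p53 by other stress pathways, reached 544 after serum depletion and 1274 after GCDC, against 267 in control BECs. The GCDC level was the highest of the 3 by a wide margin. The rise was 4.78-fold in GCDC, a log2 ratio of 2.26 at the 99.3 percentile of all probes, and it stayed past 2-fold under all 9 alternatives, between 1.61 and 2.33. In serum depletion the rise was 2.04-fold, just past the threshold (log2 ratio 1.03), and it was under 2-fold in 6 of 9 alternatives, down to 0.47.

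*Plk2*, a polo-like kinase that is induced early by serum as well as by p53 and that acts on centriole duplication, was the gene that fell furthest. It had a level of 325 after serum depletion and 453 after GCDC, against 1245 in control BECs. Both treated arrays stood far below control, by 3.83-fold after serum depletion and 2.75-fold in GCDC. The log2 ratios of -1.94 and -1.46 lay at the 3.48 and 4.50 percentiles of all probes. *Plk2* stayed past 2-fold down in both treatments under all 9 alternatives, between -2.60 and -1.78 after serum depletion and between -2.23 and -1.39 in GCDC.

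The 3 genes of apoptosis were lower on both treated arrays than on the control array. *Eda2r*, a receptor of the TNF receptor family for the ligand EDA-A2, had levels of 9.07 after serum depletion and 11.6 after GCDC, against 30.3 in control BECs. It fell 3.34-fold and 2.62-fold, with log2 ratios of -1.74 and -1.39. These signals were low, 13.3, 19.6 and 60.6 SD of the blanks above them (serum depletion, GCDC, control). With the normexp background model, an offset and quantiles made equal, the log2 ratios of *Eda2r* were -0.47 and -0.42, and under the other 8 alternatives it stayed past 2-fold down in both treatments. *Aen*, a nuclease that digests DNA in apoptotic cells, had levels of 143 after serum depletion and 241 after GCDC, against 307 in control BECs. It fell 2.15-fold in serum depletion (log2 ratio -1.10) and had a log2 ratio of -0.35 in GCDC. With equal medians over probes valid on all arrays the log2 ratio in serum depletion was -0.94, under 2-fold. *Bbc3*, which encodes PUMA, a BH3-only protein that blocks the anti-apoptotic BCL2 proteins, had levels of 13.6 after serum depletion and 16.5 after GCDC, against 26.3 in control BECs. Its log2 ratios of -0.95 and -0.67 did not pass 2-fold, at the 11.7 and 13.7 percentiles of all probes. They passed 2-fold down in 2 of 9 alternatives after serum depletion, to -1.40, and in 1 after GCDC, at -1.32. With the normexp model they were -0.26 and -0.20. The signals of *Bbc3* were also low, 19.9, 28.0 and 52.5 SD of the blanks above them (serum depletion, GCDC, control).

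*Zmat3*, a zinc finger protein that binds RNA and acts on splicing and mRNA decay, had levels of 131 after serum depletion and 119 after GCDC, against 122 in control BECs. The 3 arrays lay within the scatter between spots of 1 array, with log2 ratios of 0.10 and -0.03. Their sign changed with the scaling, from -0.34 to 0.26 after serum depletion and from -0.68 to 0.04 in GCDC, and neither passed 2-fold under any of the 9 alternatives.

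**Figure D2:**
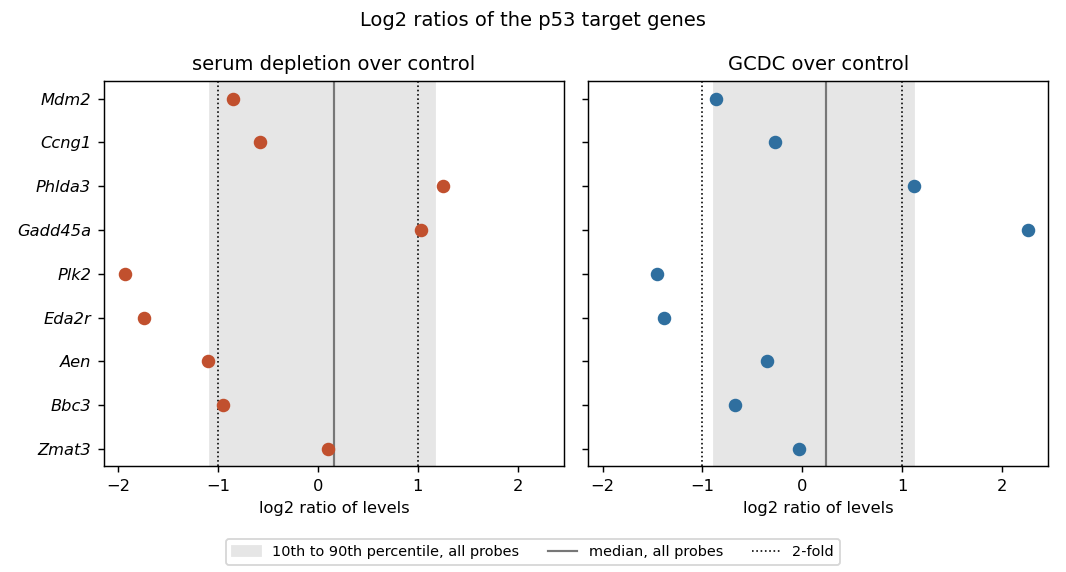
Log2 ratio of each p53 target gene to control in serum depletion (left) and GCDC (right), 1 point per gene, with the 10th to 90th percentile of all compared probes (grey band), their median (line) and the 2-fold limits (dotted). In both treatments 7 of 9 genes lie left of the median, and *Gadd45a* in GCDC, at 2.26, is the point farthest to the right.

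Set directly against each other, the treated arrays do not share the control array. Of the 9 genes 1 lay more than 2-fold lower in serum depletion than in GCDC, beside 2.92% of all probes, and none lay more than 2-fold higher, beside 2.2%. The gene was *Gadd45a*, with 544 after serum depletion and 1274 after GCDC, a log2 ratio of -1.23 at the 1.46 percentile of all probes. It was past 2-fold under all 9 alternatives, between -1.26 and -1.03. *Aen* was next, with a log2 ratio of -0.75 at the 6.94 percentile. *Mdm2* was nearly equal on the treated arrays, with a log2 ratio of 0.01, and *Phlda3* and *Zmat3* were each at 0.14. The remaining 4 genes lay between -0.48 and -0.28. The median over the 9 genes was -0.31, against -0.08 over all 19751 compared probes. These differences come from 1 array each and were not tested.

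**Figure D3:**
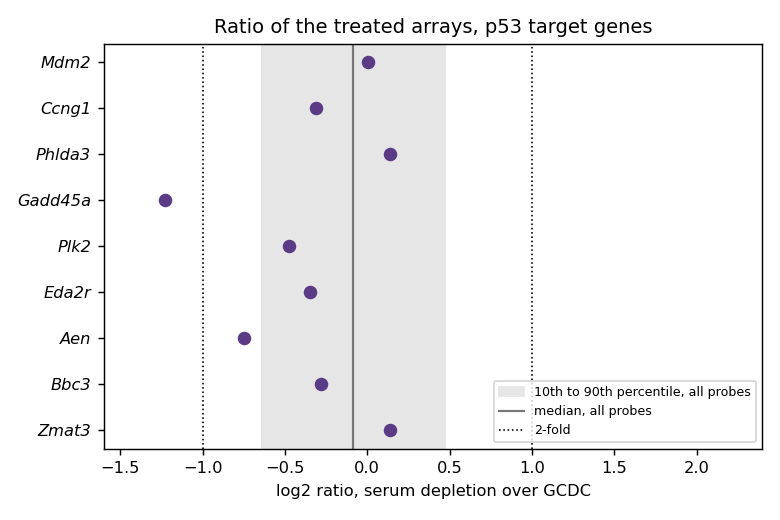
Log2 ratio of serum depletion over GCDC for each p53 target gene, with the 10th to 90th percentile of all 19751 compared probes (grey band), their median (line) and the 2-fold limits (dotted). *Gadd45a*, at -1.23, is the only gene of the 9 past 2-fold, and *Aen*, at -0.75, also lies outside the band.

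Other genes of the p53 pathway were taken from 6 lists of 94 genes, of which 83 were on the array. The lists were written with earlier results of these data known. Their shares beside those of all probes are thus a description and no independent support. In serum depletion 11 of 81 compared genes rose (13.6%, beside 13.5% of all probes) and 20 fell (24.7%, beside 11.1%). In GCDC 9 of 80 rose (11.25%, beside 13%) and 17 fell (21.25%, beside 8.51%). Their median log2 ratio was -0.08 in each treatment. *Cdkn1a* and, per list, up to 4 genes with the largest changes shared by both treatments were picked by rule, and any other gene below was picked with its values in view. Of the changes past 2-fold named below, those of *Usp7*, *Sfn*, *Gtse1*, *Ckap2*, *Epha2* and *Ninj1* in both treatments, of *Pold4* and *Dcxr* in GCDC and of *Prkab1* in serum depletion stayed past 2-fold under all 9 alternatives. All other falls named below were under 2-fold with the normexp model and its offset, as were the rises of *Trp73* and *Ak1*.

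*Cdkn1a*, which encodes p21, the inhibitor of cyclin-dependent kinases through which p53 stops the cell cycle, did not rise. It had levels of 197 after serum depletion and 325 after GCDC, against 381 in control BECs, with log2 ratios of -0.95 and -0.23. It was past 2-fold down in serum depletion under 5 of 9 alternatives, to -1.39, and in GCDC under none, where the lowest log2 ratio was -0.87. *Cdkn1a* was the 1 gene of the 80 pathway genes with promoter windows that held a full p53 site. Its 2 exact decamers have a spacer of 12 bases, and the second ends 41 bases before the first annotated start and 2831 bases before the second start. The bases straight after the second decamer also come within 1 base of the motif, without a spacer, and the exact search did not count them. Which of these decamers p53 binds as a pair was not tested. The stretch is shown with the 2 exact decamers in capitals, as the only full site by this search among the genes described.
Cdkn1a, chr17:29090892-29090951, plus strand: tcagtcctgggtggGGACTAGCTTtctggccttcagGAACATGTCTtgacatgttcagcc
At least 1 decamer was found in windows of 15 of these 80 genes (18.8%).

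Of the p53 family and its regulators, 23 genes were compared after serum depletion and 22 after GCDC. *Usp7*, a deubiquitinase that stabilises MDM2 and p53, fell in both, with levels of 6.54 after serum depletion and 9.68 after GCDC, against 74.9 in control BECs (log2 ratios of -3.52 and -2.95). *Mdm4*, the relative of MDM2 that blocks the activation domain of p53, fell to 2.21 after serum depletion and 3.65 after GCDC, against 18.0 in control BECs. The treated signals of *Mdm4* lay only 3.23 and 6.20 SD of the blanks above them. *Rpl11*, a ribosomal protein that binds MDM2 when ribosome assembly is disturbed, rose in both, to 7466 after serum depletion and 6799 after GCDC, against 2151 in control BECs. These rises were under 2-fold in 3 of 9 alternatives (quantile normalization, cyclic loess and normexp), with lowest log2 ratios of 0.82 after serum depletion and 0.70 in GCDC. The ribosomal protein gene *Rpl5*, on the same list, lay within 2-fold in both, with log2 ratios of 0.31 and 0.08. In serum depletion *Kat5* also fell, and *Trp73*, the p53 relative p73, rose with a log2 ratio of 2.50 from a control signal 2.82 SD above the blanks. In GCDC *Atm*, *Chek1* and *Sirt1* also fell, with log2 ratios of -1.39, -1.10 and -1.02. *Sirt1* has 2 probes, and the brighter was used. With every probe counted, the falls over all lists stayed at 17 in GCDC, so its other probe added no fall. *Trp63* was not valid on any array, and *Cdkn2a*, whose second product ARF inhibits MDM2, had log2 ratios of 0.37 and -0.28.

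Of 11 genes compared on the arrest list, 1 rose and 5 fell in serum depletion (9.09% and 45.5%, beside 13.5% and 11.1% of all probes). In GCDC 1 rose and 4 fell (9.09% and 36.4%, beside 13% and 8.51%). *Sfn*, the 14-3-3 sigma protein that holds back entry into mitosis, had levels of 53.7 after serum depletion and 31.6 after GCDC, against 231 in control BECs. *Ckap2* and *Gtse1* are on this list, but both are microtubule proteins of dividing cells, and what their falls mean for arrest was not tested. They had log2 ratios of -2.33 and -1.77 after serum depletion and of -1.79 and -1.83 in GCDC. *Ptpn14*, a phosphatase that restrains YAP, fell in both, with treated signals only 4.31 and 6.36 SD above the blanks, and it was not valid in serum depletion at a limit of 5 SD. *Plk3* fell in serum depletion (-1.31) and was at -0.16 in GCDC. The rise in both treatments was *Fbxw7*, a subunit of a ubiquitin ligase that degrades cyclin E, with log2 ratios of 1.07 and 1.08. It was under 2-fold in 5 of 9 alternatives in each. *Fbxw7* has 2 probes, and these values are those of the brighter probe. With every probe counted, the rises over all lists stayed at 11 in serum depletion and 9 in GCDC. The other *Fbxw7* probe thus added no rise. The other 5 genes in serum depletion and 6 in GCDC lay within 2-fold. Among them were *Tob1* (log2 ratios of 0.83 and 0.80) and *Btg2* (-0.13 and 0.66).

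Of 14 apoptosis genes, 1 rose and 2 fell in each treatment (7.14% and 14.3%). Of all probes 13.5% rose and 11.1% fell in serum depletion, and 13% rose and 8.51% fell in GCDC. *Apaf1*, the core of the apoptosome, had levels of 19.8 after serum depletion and 22.0 after GCDC, against 61.3 in control BECs. *Pidd1*, the scaffold of the caspase-2 complex, fell with log2 ratios of -1.38 and -1.20. The rise was *Triap1*, which is known to hold back apoptosis, with log2 ratios of 1.02 and 1.43. It was under 2-fold in 6 of 9 alternatives after serum depletion, down to 0.54, and in 4 after GCDC, down to 0.78. *Pmaip1*, which encodes the BH3-only protein NOXA, had log2 ratios of -0.02 and 0.78, and the death receptor *Fas* 0.17 and 0.40.

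Of 7 genes of DNA repair and nucleotide supply, 2 rose and 2 fell after serum depletion (28.6% each, beside 13.5% and 11.1% of all probes). After GCDC 2 rose and 1 fell (28.6% and 14.3%, beside 13% and 8.51%). *Pold4*, a small subunit of DNA polymerase delta, had levels of 439.7 after serum depletion and 676 after GCDC, against 173 in control BECs. *Polk*, a translesion polymerase, rose to 485 after serum depletion and 489 after GCDC, against 182 in control BECs. In serum depletion *Pold4* was under 2-fold in 3 of 9 alternatives and *Polk* in 2, and in GCDC *Polk* in 3. *Ercc5*, the nuclease XPG of excision repair, fell just past the threshold, with log2 ratios of -1.07 and -1.01, and was under 2-fold in 2 of 9 alternatives in each. *Polh*, another translesion polymerase, fell in serum depletion (log2 ratio -1.71) and had a log2 ratio of -0.71 in GCDC.

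Of 13 genes of metabolism, autophagy and redox, 3 rose and 1 fell in serum depletion (23.1% and 7.69%, beside 13.5% and 11.1% of all probes). In GCDC 1 rose and 0 fell (7.69% and 0%, beside 13% and 8.51%). *Dcxr*, a dicarbonyl and L-xylulose reductase, rose in both treatments, with log2 ratios of 1.43 and 1.77. Its serum depletion value was under 2-fold in 4 of 9 alternatives. *Ak1*, an adenylate kinase, rose in serum depletion, with levels of 66.6 after serum depletion and 21.6 after GCDC, against 23.6 in control BECs. *Ephx1* also rose there, with a log2 ratio of 1.01 that was under 2-fold in 6 of 9 alternatives, and *Prkab1*, a subunit of AMP-activated kinase, fell, with log2 ratios of -1.65 after serum depletion and -0.29 in GCDC. The sestrins *Sesn1* and *Sesn2* and the glycolysis regulator *Tigar* were within 2-fold in both. The differences between treatments at these genes were not tested.

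Of 13 secreted, membrane and signalling targets, 2 rose and 7 fell in serum depletion (15.4% and 53.8%, beside 13.5% and 11.1% of all probes). In GCDC 3 rose and 5 fell (23.1% and 38.5%, beside 13% and 8.51%). *Tgfa*, a ligand of the EGF receptor, had levels of 2.05 after serum depletion and 3.40 after GCDC, against 22.6 in control BECs, with the treated signals near the background. *Epha2*, a receptor tyrosine kinase, had levels of 69.0 after serum depletion and 141 after GCDC, against 421 in control BECs. *Pml*, which builds nuclear bodies of that name, fell with log2 ratios of -2.59 and -1.91, and *Sulf2*, an extracellular sulfatase, with -2.21 and -1.91. *Ninj1*, a membrane protein of cell rupture, rose in both, with levels of 625 after serum depletion and 454 after GCDC, against 144 in control BECs.

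**Figure D4:**
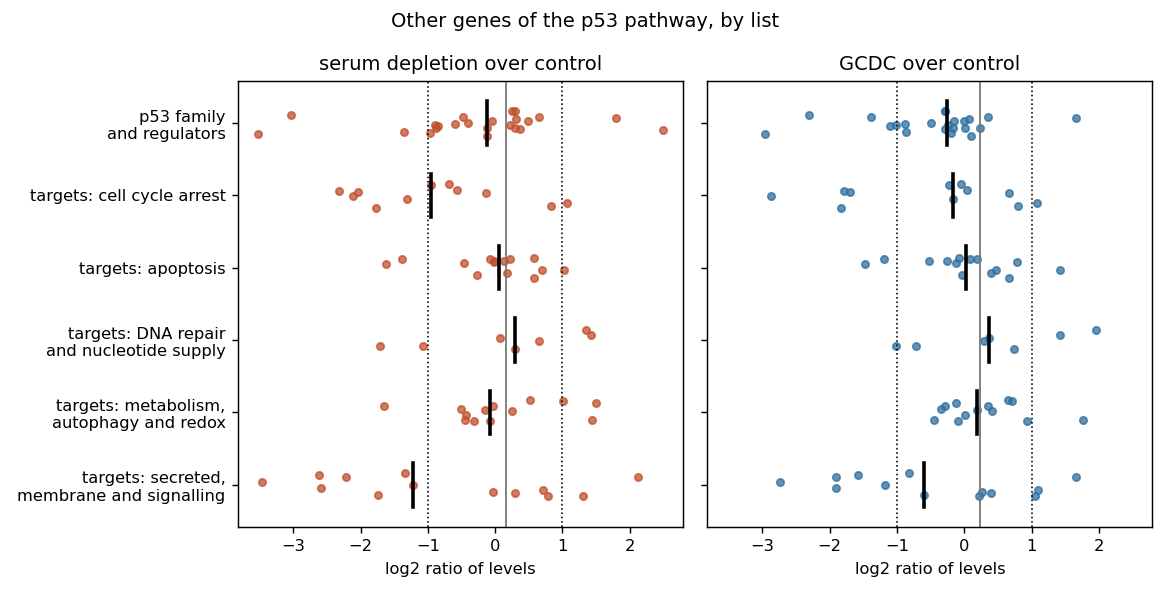
Log2 ratio to control of the other genes of the p53 pathway in serum depletion (left) and GCDC (right), 1 point per gene and 1 row per list (points moved up or down at random for sight), with the median of each list (black bar), the median of all probes (grey line) and the 2-fold limits (dotted). The lowest list median is that of the secreted, membrane and signalling targets in both treatments, -1.22 after serum depletion and -0.60 in GCDC.

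The calls depended on how the arrays were scaled to each other. Of all probes past 2-fold, 55.0% were rises after serum depletion and 60.4% in GCDC as reported, and these shares ran from 23.0% to 66.3% and from 12.2% to 66.2% over the alternatives. With no scaling the median of all probes was -0.28 after serum depletion and -0.41 in GCDC. A factor on a whole array cannot change the difference between the median of the 9 genes and that of all probes. Under the 3 alternatives that rescale by intensity (quantile normalization, cyclic loess and normexp) this log2 difference was between -1.48 and -0.49 after serum depletion and between -0.84 and -0.44 in GCDC, against -1.02 and -0.59 as reported. The genes that kept their call in both treatments under each alternative were *Plk2* for the falls and none for the rises, since *Gadd45a* did so in GCDC only.

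**Figure D5:**
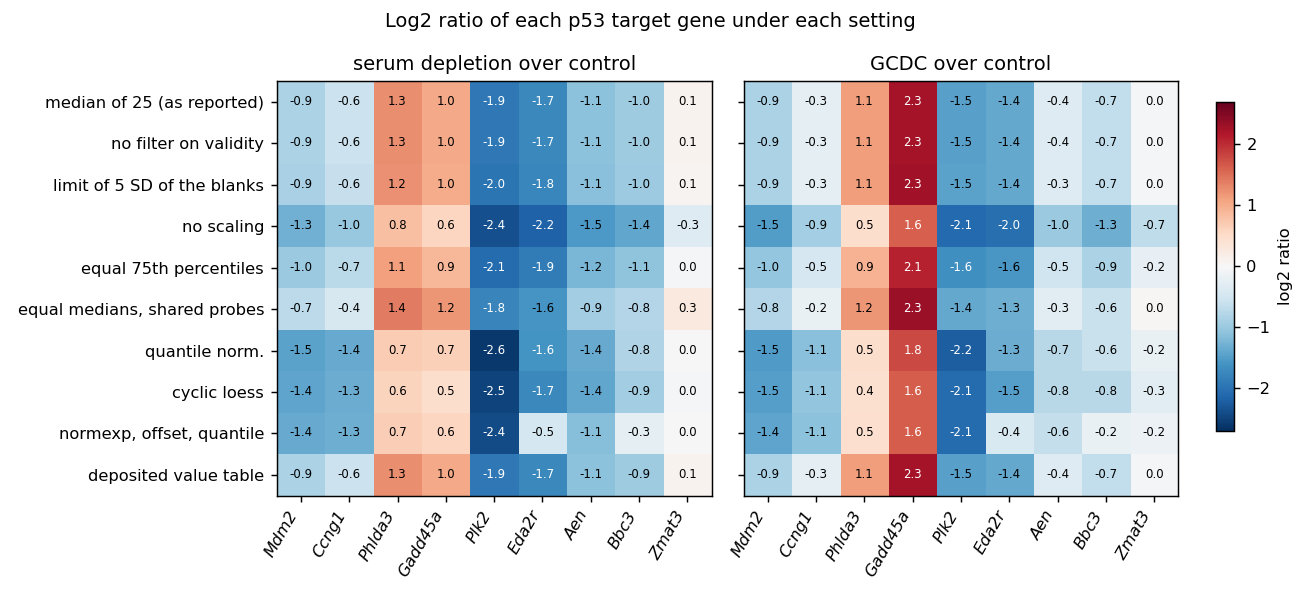
Log2 ratio to control of each p53 target gene under the reported setting (first row) and 9 alternatives, in serum depletion (left) and GCDC (right), as numbers and colour (red higher, blue lower than control). *Plk2* is below -1 in every cell and *Gadd45a* in GCDC above 1 in every row, while *Phlda3* is above 1 in some rows and between 0 and 1 in others.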

How the data were processed

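RNA pooled from 2 independent experiments per condition was hybridised to 1 one-colour array per condition. The authors scanned the arrays and deposited the median pixel intensity of each spot, with no background subtracted, and a table of processed intensity. Their methods state that a mean of the blank spots was subtracted and that signals more than 2 SD above it were valid. Versions of the scanner software are not given in the sources used here. Levels were recomputed from the scanner output: blank spots outside the 5th to 95th percentile of the 2736 blanks were dropped, the mean of the rest was taken off, and each array was scaled to a median of 25, which gave the same valid probes as the deposited table. On the GCDC array 3 gene spots marked by the scanner were left out. Scale and centring of the deposited table were found by this match.

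Of the probes 20690 had 1 symbol and 2783 none, and for 20556 the gene identifier was found in the RefSeq gene table. Where a pathway gene had several probes (6 genes), the one with the highest mean level was used. With 1 array per condition, ratios past 2-fold were counted and no test was made. All 9 genes and *Cdkn1a* were named, and of each pathway list up to 4 genes past 2-fold the same way in both treatments, by mean change. Members and lists were chosen with earlier results of these data known. The motif searched was the p53 decamer, and a full site was 2 decamers with 0 to 13 bases between them. The ratio steps were tested on simulated data. The software was limma 3.58.1 under R 4.3.3, and numpy 2.4.6, pandas 2.3.3 and matplotlib 3.10.9 under Python 3.11.15. Alternatives were other validity limits, scalings, background models and fold limits, the deposited table, and every probe counted.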

Additional observations from a re-analysis of the deposited data

How the results depend on the processing

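As reported, 2 of the 9 genes rose and 3 fell in serum depletion, and 2 rose and 2 fell in GCDC, and of the other pathway genes 11 rose and 20 fell in serum depletion and 9 rose and 17 fell in GCDC. With no scaling, 0 of the 9 rose and 6 fell in serum depletion and 1 rose and 5 fell in GCDC. In that setting 4 pathway genes rose in each treatment, and 28 fell in serum depletion and 25 in GCDC. After quantile normalization the counts of the 9, in the same order, were 0, 5, 1 and 4. There 6 pathway genes rose and 23 fell in serum depletion, and 5 rose and 17 fell in GCDC. After cyclic loess the counts of the 9 were 0, 5, 1 and 4. There 4 pathway genes rose and 23 fell in serum depletion, and 3 rose and 19 fell in GCDC. With the normexp background model (offset 50) before quantile normalization, 0 of the 9 rose and 4 fell in serum depletion, and 1 rose and 3 fell in GCDC. With that model 2 pathway genes rose and 9 fell in serum depletion, and 3 rose and 6 fell in GCDC. The share of all probes raised and lowered was 5.91% and 19.7% in serum depletion and 3.02% and 21.8% in GCDC with no scaling, 10.7% and 12% and 8.26% and 10.5% after quantile normalization, 8.51% and 13.1% and 6.49% and 11.4% after cyclic loess, and 2.97% and 4.02% and 2.2% and 3.03% with normexp, beside 13.5% and 11.1% and 13% and 8.51% as reported. At equal 75th percentiles 1 of the 9 rose in each treatment, beside 10.6% of all probes in serum depletion and 8.58% in GCDC. With a limit of 5 SD of the blanks 1 rose in serum depletion, beside 12.7% of all probes. At 1.5-fold 5 of the 9 fell in serum depletion and 4 in GCDC. At this limit 17 pathway genes rose in each treatment, and 27 fell in serum depletion and 22 in GCDC. At 4-fold none of the 9 rose in serum depletion (0), 1 rose in GCDC and 0 fell in either, with 2 pathway genes raised and 9 lowered in serum depletion and 0 raised and 4 lowered in GCDC. The share of all probes was not computed at 1.5-fold or 4-fold, so the counts at these limits cannot be set against the whole array. No filter on validity, equal medians over shared probes, the deposited table and counting every probe moved none of the reported counts by more than 1.5 times. The threshold settings differ by construction, and the cause of the other shifts was not tested. Of 243 single ratios of the 9 genes under an alternative 205 kept their side of 2-fold, 18 lost it and 20 passed it, and no called ratio changed sign. Of 339 ratios of the pathway genes picked by rule 288 kept their side, 46 lost it and 5 passed it. No paired analysis was possible because each condition has 1 array. Signals near the background, such as those of *Mdm4*, *Tgfa*, *Ptpn14* and *Trp73*, limit the precision of their ratios.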
